A study of Mus musculus with 47 samples.

Results

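CD4 and IgM+SP cells were the T and B lymphocyte populations among 17 blood cell populations taken from the bone marrow of adult C57Bl6 mice. The arrays whose titles begin with CD4 (2 arrays) were compared with those whose titles begin with IgM+SP (2 arrays), 4 of the 47 arrays of the series. The labels call the arrays of a population biological replicates, and do not say whether an array holds 1 animal or a pool, so the p-values rest on array-to-array spread, which may be technical. They name no treatment, mutation, sex or age beyond adult, list no sort markers, and do not spell out "IgM+SP". Each array carried biotin-labelled RNA of 2000 purified cells, amplified in a pair of rounds and hybridised to an Affymetrix expression array. Genes that both lymphocytes share and progenitors lack were sought against 14 progenitor populations (41 arrays). These ran from long-term stem cells (LTHSC) to ProB and PreB cells. IgM+SP cells also carried early B cell transcripts, among them Cd93, given below. Mature natural killer cells (NKmature, 2 arrays) served as a further lymphocyte.

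A T cell reads peptides on MHC molecules through its T cell receptor, which signals through the CD3 chains, a Src-family kinase, ZAP70 and the scaffolds LAT and SLP-76. A B cell reads antigen through membrane immunoglobulin, which signals through CD79A and CD79B, the kinases SYK and BTK and the adaptor BLNK. The lineages are set by different factors: BCL11B and GATA3 act in T cells, EBF1 and PAX5 in B cells. Mature cells of both kinds recirculate and follow chemokines into lymphoid organs.

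Values are log2 intensities, and 1 unit is a doubling. A difference is the CD4 mean minus the IgM+SP mean with its standard error (SE), n = 2 arrays in each group. The SE is that of the fit, which takes a gene's spread from all 17 populations. It is not the spread of the 4 compared arrays alone. A gene was called where its Benjamini-Hochberg adjusted p from limma, fitted over all 47 arrays, was under 0.05 and the difference was at least 2-fold. Of 13949 genes tested, 2334 were called higher in CD4 (16.7%) and 1377 lower (9.87%), 26.6% in all. A difference of at least 16-fold was reached by 103 genes called higher and 100 called lower. CD4 and IgM+SP arrays did not overlap for 70.8% of the genes tested, so that separation of the arrays alone sets few genes apart. For a gene whose mean in either population is under 3.89, near background, the size and rank of its difference rest on the probe set's own background. The median difference over all genes was -0.0016. The upper-quartile intensity of an array was 72.6 and 66.5 in CD4, against 58.0 and 59.0 in IgM+SP. Under quantile normalization, 1910 genes were called higher and 1632 lower.

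**Figure D1:**
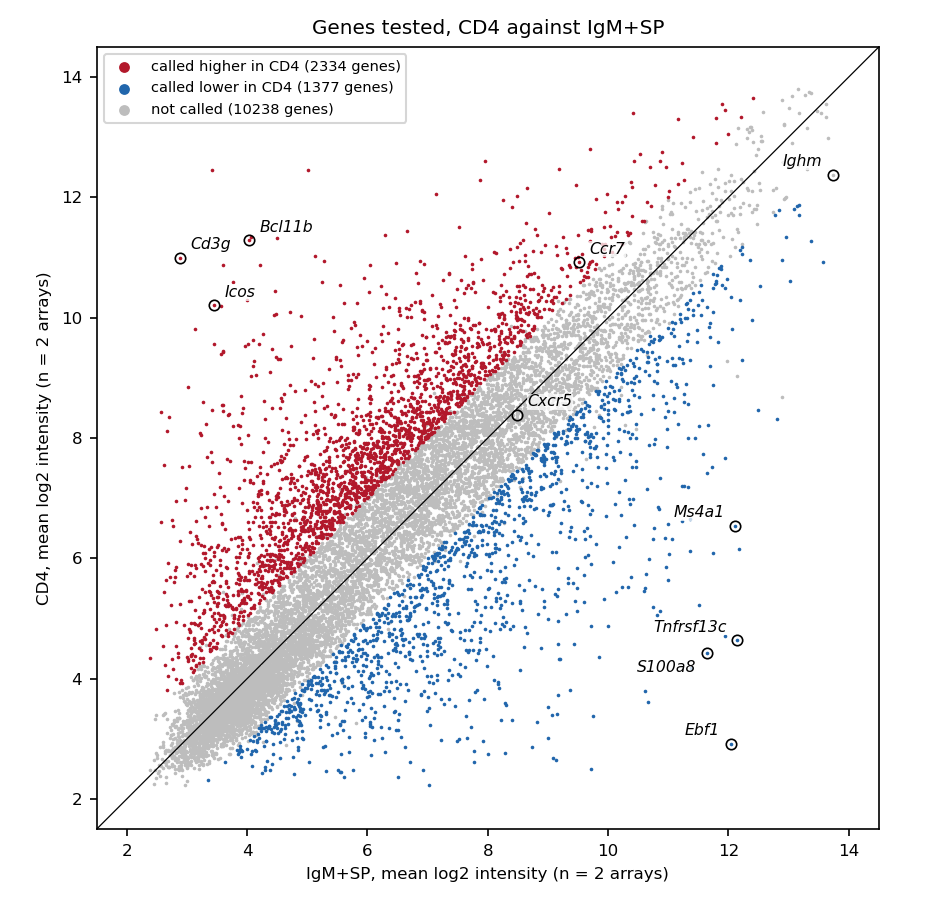
Mean log2 intensity of each of the 13949 genes tested, CD4 on the vertical axis and IgM+SP on the horizontal axis (2 arrays each); red points were called higher in CD4 (2334 genes), blue points lower (1377 genes) and grey points were not called. Cd3g, Bcl11b and Icos lie at the upper left, Ebf1, Tnfrsf13c and S100a8 at the lower right, and Cxcr5 lies on the line of equal intensity.

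The replicate arrays correlated at 0.981 in CD4 and 0.984 in IgM+SP across the genes tested, and CD4 with IgM+SP arrays at 0.846 to 0.860. Transcripts of the X-inactivation gene Xist and the Y-linked gene Eif2s3y split the groups: Xist had 9.63 and 10.47 in CD4, against 4.80 and 4.09 in IgM+SP, and Eif2s3y 2.63 and 2.71 in CD4, against 8.90 and 9.27 in IgM+SP. The sex of the animals and the cell type therefore cannot be told apart. Xist was picked after its values were seen. The arrays labelled ProB stand apart from their label: Klrd1, a natural killer receptor, had 11.63 and 11.57 there and Thy1 9.30 and 9.31, while Ebf1 had 7.55 and 3.85. PreB replicates 3 and 4 correlated with the IgM+SP arrays at 0.956 to 0.964, and with PreB replicates 1 and 2 at 0.928 to 0.934. Counts of genes shared by both lymphocytes over the progenitors are therefore given with and without these arrays. Without PreB replicates 3 and 4 in the fit, 2372 genes were called higher in CD4 and 1411 lower.

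The T cell receptor complex was high in CD4 and near background in IgM+SP. Cd3g, the CD3 gamma chain, had 11.22 and 10.77 in CD4, against 3.02 and 2.74 in IgM+SP, a difference of 8.11 ± 0.26 (adjusted p = 1.4e-23). Cd3d, the delta chain, had 10.81 and 10.95 in CD4, against 3.87 and 3.34 in IgM+SP. Both genes sat below the filter level of 3.89 in IgM+SP and among bright genes in CD4. Cd247, the zeta chain, differed by 6.82 ± 0.27, Cd3e by 3.01 ± 0.21, and Trat1, which stabilises the complex, by 4.18 ± 0.28. Of 6 members tested, 5 rose in CD4 and none fell, with a list median of 5.50. The member not called was Ptcra, the pre-T receptor chain of thymocytes, at 3.35 and 3.53 in CD4, against 3.53 and 3.30 in IgM+SP. The probe set named for the beta chain segment Trbv1 gave the largest rise of all genes, with 12.44 and 12.45 in CD4, against 3.33 and 3.52 in IgM+SP; the early thymic progenitors (ETP) averaged 12.19 on it, so it is not particular to mature T cells here.

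Coreceptors and costimulatory receptors followed, with 17 of 20 called higher, 1 lower and a median of 4.16. Cd4, which gives the population its name and binds MHC class II, had 9.06 and 9.55 in CD4, against 4.70 and 4.31 in IgM+SP. Cd8a, which marks the other T cell branch, had 4.45 and 4.47 in CD4, against 4.94 and 5.02 in IgM+SP and was not called, while Cd8b1 rose by 1.99 ± 0.22. Thy1, a surface glycoprotein of mouse T cells, had 11.34 and 11.35 in CD4, against 4.10 and 4.02 in IgM+SP. Cd28, the main costimulatory receptor, had 9.33 and 10.31 in CD4, against 3.15 and 3.13 in IgM+SP. Icos, a relative of Cd28, had 10.26 and 10.15 in CD4, against 3.67 and 3.23 in IgM+SP. In these 3 genes both CD4 arrays were bright and both IgM+SP arrays near background. Cd5, which dampens receptor signals, rose by 6.66 ± 0.23, Cd27 by 5.36 ± 0.41, and the inhibitory receptors Ctla4 and Pdcd1 by 4.32 ± 0.24 and 4.00 ± 0.21. Cd40lg, the ligand by which helper T cells act on B cells, had 4.26 and 3.98 in CD4, against 4.14 and 4.04 in IgM+SP and was not called. The member called lower was the inhibitory receptor Btla, with 10.41 and 10.59 in CD4, against 11.84 and 12.06 in IgM+SP, a difference of -1.45 ± 0.50; that call was lost without any single array of the 4 (-1.34 to -1.56, adjusted p 0.0582 to 0.107).

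Of 18 genes of T receptor signalling, 17 rose in CD4 and none fell (median 3.51). Lat, the scaffold onto which the signal is built, had 10.74 and 10.17 in CD4, against 4.24 and 4.68 in IgM+SP. Lcp2, which encodes SLP-76, had 10.02 and 10.04 in CD4, against 5.35 and 4.45 in IgM+SP. Prkcq, the protein kinase C of the T cell synapse, had 10.86 and 11.03 in CD4, against 5.39 and 5.16 in IgM+SP. Skap1 (adaptor to integrins) and Txk (a Tec-family kinase) were near background in IgM+SP and differed by 6.63 ± 0.27 and 4.86 ± 0.27. Fyn, a Src-family kinase, was bright in both groups, with 10.90 and 10.74 in CD4, against 8.54 and 8.20 in IgM+SP, and still differed by 2.45 ± 0.31. Themis, known from T cell selection, rose by 2.35 ± 0.31. Vav1 rose by 1.73 ± 0.42, but averaged over its probe sets the difference was 0.62 and not called. Zap70 was the exception, with 5.84 and 6.05 in CD4, against 6.44 and 6.31 in IgM+SP on its brightest probe set; the mean of its probe sets differed by 2.35 the other way (adjusted p = 5.4e-15), so its direction depends on the probe set.

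Among 17 T lineage factors, 9 rose, none fell and the median was 1.11. Bcl11b, which holds T cells to their lineage, had 11.05 and 11.53 in CD4, against 4.09 and 3.97 in IgM+SP. Gata3 rose by 3.38 ± 0.29 and Lef1, a factor of Wnt signalling, by 1.89 ± 0.25. Tbx21, which encodes the Th1 factor T-bet, rose by 2.89 ± 0.27. Foxp3, the factor of regulatory T cells, had 6.91 and 6.81 in CD4, against 3.61 and 3.35 in IgM+SP, and Ikzf2, known from the same cells, differed by 5.08 ± 0.63. Nfatc2 rose by 3.62 ± 0.36 on its brightest probe set, and the mean of its probe sets gave 0.63, not called. Stat4 was called at 1.11 ± 0.39, but not without CD4 replicate 2 (adjusted p = 0.16), IgM+SP replicate 1 (0.071) or IgM+SP replicate 2 (0.094). Runx1 at -0.052 ± 0.33, Ets1 at -0.17 ± 0.46 and Satb1 at -0.74 ± 0.43 were bright on all 4 arrays and not called, as was Runx3 at -0.83 ± 0.52.

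Genes that mark memory and effector T cells were also higher: 9 of 16 rose, none fell, and the median was 1.52. The list summed to an intensity of 5561 and 5287 on the CD4 arrays, against 30685 and 32178 on the NKmature arrays. It is therefore not particular to T cells here. Cxcr3, a chemokine receptor of activated T cells, had 9.58 and 9.57 in CD4, against 4.20 and 3.83 in IgM+SP. Ccl5, a chemokine of memory cells, had 8.72 and 8.27 in CD4, against 4.53 and 4.30 in IgM+SP. S100a4 rose by 4.00 ± 0.47 and Lgals1 (galectin-1) by 2.94 ± 0.39. Il4, the Th2 cytokine, rose by 1.74 ± 0.25, with 5.13 and 4.44 in CD4, against 2.92 and 3.18 in IgM+SP. The IgM+SP values lie under the filter level, and with intensities floored at 16 the difference was 0.79 and not called. Ifng at 0.87 ± 0.65, Gzmb at 0.31 ± 0.49 and Il17a at -0.11 ± 0.21 were not called. Of 12 natural killer and cytotoxic markers tested, Klrd1, Nkg7 and Prf1 rose in CD4, with 8.79 and 7.99, 7.77 and 7.44 and 6.81 and 6.90 on the CD4 arrays, and 8 were not called. Over all genes tested, 16.7% were called higher and 26.6% in either direction. Tyrobp, a signalling adaptor that myeloid cells also carry, was called lower at -1.38 ± 0.41, but not without CD4 replicate 2 (-0.93, adjusted p = 0.16) or IgM+SP replicate 1 (-1.09, adjusted p = 0.107). The natural killer receptors Ncr1 and Klrk1 averaged under the filter level in both groups. Such low averages were found for 5 of the 13 list members on the array in CD4 and 5 in IgM+SP.

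**Figure D2:**
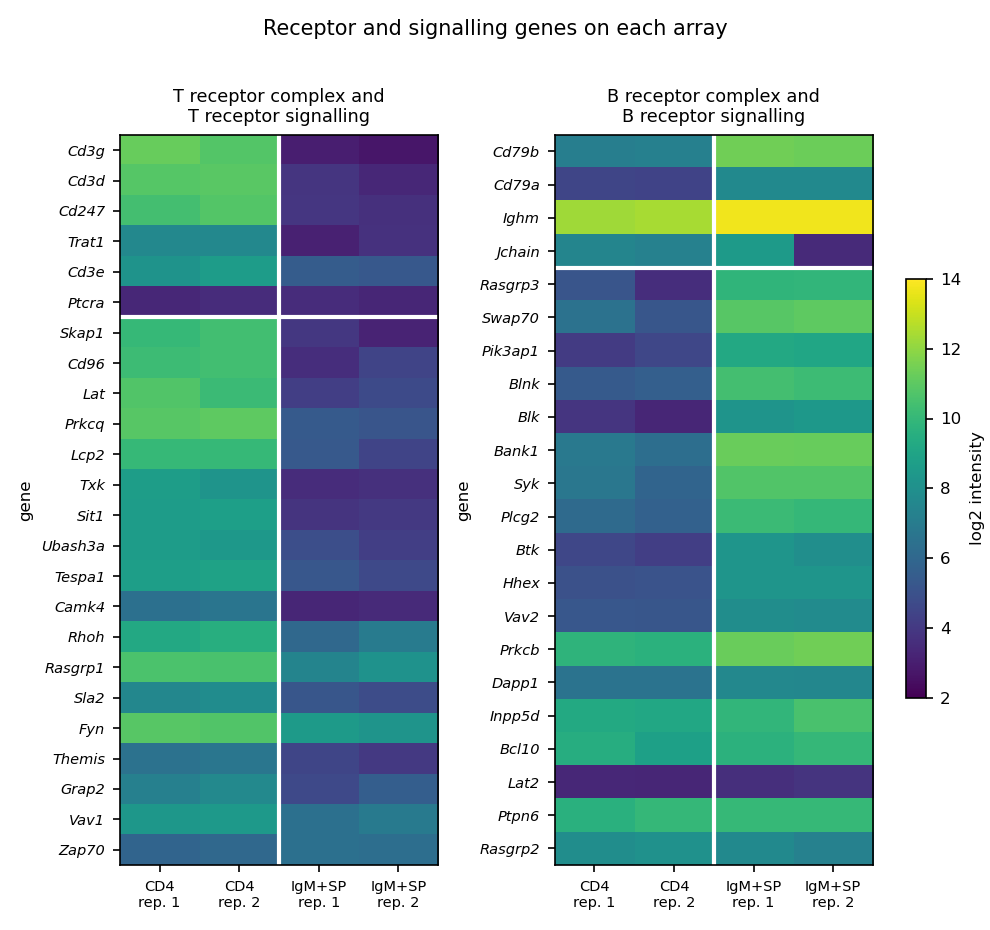
Log2 intensity (colour) of the tested genes of the T receptor complex and signalling lists (left panel) and of the B receptor complex and signalling lists (right panel), one column per array, CD4 arrays left of IgM+SP arrays. Rows run from the largest difference in the named direction, and Zap70, Ighm, Jchain and Ptpn6 show little or uneven contrast between the groups.

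In the other direction, the B cell receptor was measured through few probe sets. Cd79b, a signalling chain of the receptor, had 7.14 and 7.22 in CD4, against 11.38 and 11.29 in IgM+SP, a difference of -4.16 ± 0.35 (adjusted p = 2.3e-12). Cd79a, its partner, had 4.52 and 4.42 in CD4, against 7.67 and 7.72 in IgM+SP, a difference of -3.22 ± 0.66. The immunoglobulin kappa probe set (Igk) had 4.91 and 5.56 in CD4, against 11.93 and 11.11 in IgM+SP. Ighm, the mu heavy chain that names the IgM+SP cells, was bright in both groups: 12.31 and 12.45 in CD4, against 13.72 and 13.75 in IgM+SP. Its difference of -1.36 ± 1.20 was not called over all arrays (adjusted p = 0.4) and was called on the 4 arrays alone (0.0023). Of 4 members of the receptor list tested, 2 fell in CD4. The B cell surface list summed to an intensity of 2522 and 2752 on the CD4 arrays, against 27345 and 29920 on the IgM+SP arrays, and the part of B cell RNA in the CD4 level of Ighm was not tested. In bulk samples, fewer cells of a type and less RNA per cell cannot be told apart.

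Of 21 B cell surface genes, 17 fell in CD4, none rose, and the median was -2.92. Tnfrsf13c, the receptor for the survival factor BAFF, had 5.22 and 4.07 in CD4, against 12.10 and 12.19 in IgM+SP. Ms4a1, which encodes CD20, had 6.39 and 6.69 in CD4, against 11.92 and 12.30 in IgM+SP. Cd72, an inhibitory coreceptor, had 6.80 and 6.34 in CD4, against 10.81 and 11.17 in IgM+SP. Cd22, a sialic-acid-binding inhibitor of the B cell receptor, had 5.98 and 6.93 in CD4, against 9.36 and 9.37 in IgM+SP. Cr2 (complement receptor) differed by -2.80 ± 0.42, Fcer2a (the low-affinity IgE receptor) by -3.21 ± 0.54 and Cd40 by -3.13 ± 0.34. Fcmr, the receptor for IgM, had 7.45 and 7.57 in CD4, against 11.78 and 11.69 in IgM+SP. The 4 genes not called were Cd37 at 0.82 ± 0.46, Tnfrsf13b (TACI) at 0.28 ± 0.61, Icosl at -0.39 ± 0.28 and Cd55 at -0.94 ± 0.34; with its probe sets averaged, Cd55 was called lower (-1.53), as it was under quantile normalization (-1.17).

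B receptor signalling gave 12 falls and no rise among 18 genes, with a median of -3.47. Syk, the kinase related to ZAP70, had 6.77 and 5.87 in CD4, against 10.75 and 10.74 in IgM+SP. Blnk, the adaptor related to SLP-76, had 5.41 and 5.64 in CD4, against 10.42 and 10.24 in IgM+SP. Btk, whose loss in humans stops B cell development, had 4.54 and 4.21 in CD4, against 8.26 and 7.92 in IgM+SP. Blk, a Src-family kinase, had 3.83 and 3.29 in CD4, against 8.20 and 8.41 in IgM+SP. Plcg2, which releases calcium, had 6.16 and 5.72 in CD4, against 10.17 and 9.99 in IgM+SP. For all 5, both CD4 arrays lay below both IgM+SP arrays. Arrays of the groups did not overlap, in either direction, for 70.8% of all genes tested. Bank1 and Pik3ap1, B cell adaptors, differed by -4.62 ± 0.71 and -4.86 ± 0.34. Ptpn6 (the phosphatase SHP-1) at -0.22 ± 0.22, Rasgrp2 at 0.50 ± 0.32 and Inpp5d (SHIP1) at -0.98 ± 0.35 were not called; Inpp5d was called lower without IgM+SP replicate 1 (-1.29) and under quantile normalization (-1.13).

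The B lineage factors were low in CD4. Ebf1, which opens B cell genes, had 2.96 and 2.88 in CD4, against 12.001 and 12.07 in IgM+SP, a difference of -9.12 ± 0.52 (adjusted p = 6.5e-17). Pax5, which keeps B cells committed, had 3.26 and 3.36 in CD4, against 6.17 and 5.66 in IgM+SP. Spib, an Ets factor, had 5.64 and 5.63 in CD4, against 11.01 and 11.00 in IgM+SP, and Pou2af1, the coactivator that binds octamer factors, had 7.59 and 6.82 in CD4, against 11.24 and 11.29 in IgM+SP. The factors Irf4 and Irf8 differed by -4.73 ± 0.29 and -3.13 ± 0.42, Mef2c by -4.93 ± 0.33 and Bcl11a by -3.48 ± 0.30. Of 18 factors, 13 fell and none rose (median -2.87). Bach2 at -0.77 ± 0.43 and Relb at -0.030 ± 0.28 were not called. Genes of immunoglobulin rearrangement were low but present in IgM+SP: Rag1, a recombinase subunit, had 2.79 and 2.95 in CD4, against 6.25 and 7.001 in IgM+SP, and Vpreb3, a pre-B cell protein, 4.06 and 4.57 in CD4, against 6.73 and 6.76 in IgM+SP. Cd93, an early B cell antigen picked after its values were seen, had 3.75 and 3.71 in CD4, against 9.18 and 9.16 in IgM+SP. Vpreb1 and Igll1, the surrogate light chain, were not called at -0.48 ± 0.42 and -0.49 ± 0.39; with its probe sets averaged, Igll1 was called lower (-1.64, adjusted p = 4.08e-08).

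The promoters of B cell genes that fell are shown for the motifs of their known factors, read from RefSeq windows (GRCm38.p6) of 250 bases before to 50 after the start. The EBF motif, TCCC and GGGA separated by any 2 bases and the same on both strands, stood in 24 of 1094 genes called lower (2.19%), 20 of 1910 called higher (1.05%) and 1.28% of all genes tested. The octamer ATTTGCAT, searched on both strands, stood in 2.29% of the genes called lower, 1.47% of those called higher and 1.58% of all tested. Most genes called lower hold neither in this window, and a match is a description of letters, not a site. Capitals mark the EBF motif in Cd22 and the octamer in Vpreb3 and Blnk, each on the gene's strand.
Cd22, chr7:30879043-30879102, minus strand: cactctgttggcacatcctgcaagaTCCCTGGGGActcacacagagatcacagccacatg
Vpreb3, chr10:75948230-75948289, plus strand: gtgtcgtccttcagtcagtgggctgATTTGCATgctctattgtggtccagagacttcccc
Blnk, chr19:40994317-40994376, minus strand: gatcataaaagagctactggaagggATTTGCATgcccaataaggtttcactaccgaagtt

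T and B cell genes of like role were set side by side as pairs. Of 17 pairs with both members tested, 11 had the T cell gene called higher and the B cell gene called lower, and none had a member called against its name. Within a receptor pathway, Lcp2 differed by 5.13 ± 0.33 and Blnk by -4.81 ± 0.41. Of the phospholipases, Plcg1 differed by 2.31 ± 0.28 and Plcg2 by -4.14 ± 0.29; the mean of the Plcg1 probe sets was 0.53 and not called. The Ras activators Rasgrp1 and Rasgrp3 differed by 2.84 ± 0.30 and -5.49 ± 0.57, and the zinc finger factors Bcl11b and Bcl11a by 7.26 ± 0.29 and -3.48 ± 0.30. Pairs with 1 member not called were Lat and Lat2, Icos and Icosl, Camk4 and Camk2d, Ccr7 and Cxcr5, Cd40lg and Cd40, and Zap70 and Syk. With the probe sets of Camk2d averaged, it was called lower (-1.72, adjusted p = 1.1e-11). Lat2 lay under the filter level in both groups.

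**Figure D3:**
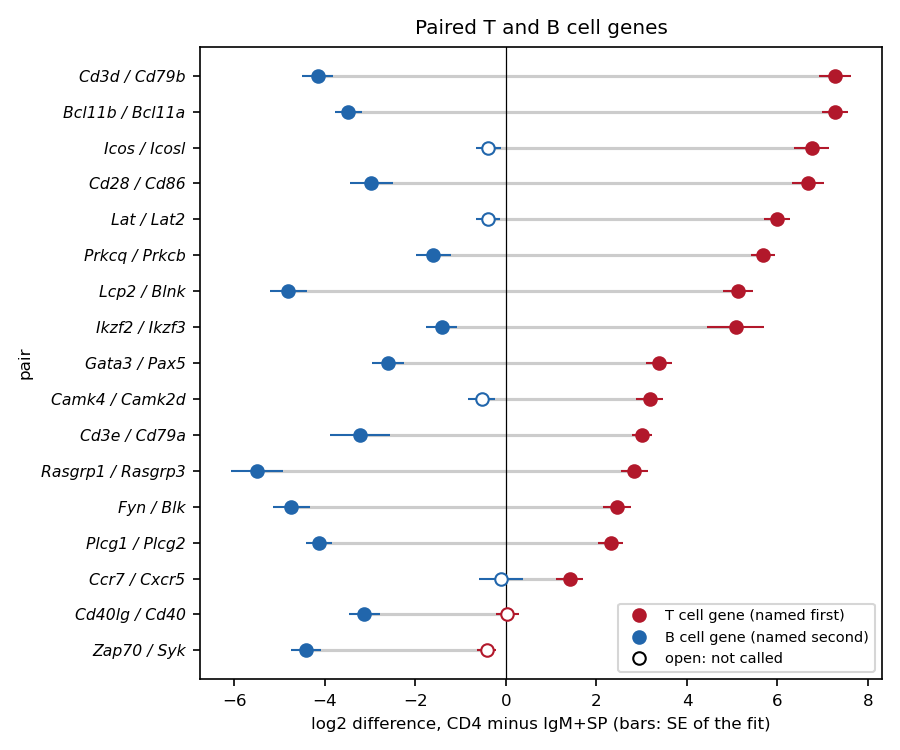
Log2 difference, CD4 minus IgM+SP, of 17 pairs of T cell genes (red, named first) and B cell genes (blue, named second), with the standard error of the fit; open points were not called. In 11 pairs the red point was called higher and the blue point lower.

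Presentation genes of MHC class II were lower in CD4 yet far from absent: 6 of 14 fell, none rose, and the median was -1.42. H2-Aa, a class II alpha chain, had 11.12 and 10.73 in CD4, against 13.58 and 13.55 in IgM+SP. H2-Ab1, its beta partner, had 9.31 and 8.09 in CD4, against 11.07 and 10.77 in IgM+SP. H2-DMb2 and H2-Ob, which edit peptide loading, differed by -4.16 ± 0.35 and -3.45 ± 0.54. Cd74, the invariant chain, had 8.72 and 8.04 in CD4, against 9.61 and 10.08 in IgM+SP and was not called over all arrays (adjusted p = 0.089), although it was without PreB replicates 3 and 4 (0.031). Ciita, the class II master regulator, was dim, with 3.80 and 3.96 in CD4, against 3.82 and 5.11 in IgM+SP.

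Homing receptors mostly favoured CD4, with 12 of 21 called higher and 2 lower (median 1.53). Itgb7, an integrin chain of gut homing, had 11.33 and 11.44 in CD4, against 6.53 and 6.05 in IgM+SP. Cxcr6 rose by 4.59 ± 0.18, S1pr1, which lets lymphocytes leave tissues, by 3.36 ± 0.40, Itgb2 and Itgal, the 2 chains of LFA-1, by 3.43 ± 0.31 and 2.39 ± 0.35, and Selplg, the selectin ligand, by 2.68 ± 0.27. Against that, Cxcr4, which holds cells in the marrow, had 7.15 and 6.17 in CD4, against 11.45 and 11.27 in IgM+SP, and Cd44, a hyaluronan receptor, 8.68 and 8.67 in CD4, against 10.63 and 10.42 in IgM+SP. The mean of the Cd44 probe sets differed by -0.93, short of the 2-fold limit. Ccr7, which guides cells into lymph nodes, had 10.72 and 11.13 in CD4, against 9.45 and 9.59 in IgM+SP, and Cxcr5, which guides them to follicles, 8.12 and 8.66 in CD4, against 8.34 and 8.63 in IgM+SP. Ccr7 was modestly higher in CD4 and Cxcr5 overlapped between the groups.

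Of 23 cytokine receptors, 12 rose and 1 fell (median 1.03). Il7r, the survival receptor of resting T cells, had 11.65 and 11.82 in CD4, against 8.84 and 9.21 in IgM+SP. Il27ra had 9.32 and 9.90 in CD4, against 6.34 and 6.16 in IgM+SP, Il18r1 differed by 4.56 ± 0.63, and Il6st, the shared signal chain gp130, by 2.60 ± 0.32. Il2rb, the beta chain of the interleukin 2 receptor, rose by 2.85 ± 0.29, while its alpha chain Il2ra had 6.23 and 6.02 in CD4, against 7.06 and 6.13 in IgM+SP and was not called. Tgfbr2 was bright on all arrays at 0.11 ± 0.32. Csf2rb, a chain of myeloid growth factor receptors, was the member that fell, with 5.04 and 4.23 in CD4, against 7.81 and 7.398 in IgM+SP.

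All 8 Gimap genes tested rose in CD4 (median 2.31), a family of GTPases of lymphocyte survival clustered on chromosome 6. Gimap7 had 9.96 and 10.21 in CD4, against 4.73 and 4.69 in IgM+SP, Gimap3 10.53 and 10.56 in CD4, against 5.80 and 5.29 in IgM+SP and Gimap4 11.92 and 12.01 in CD4, against 8.42 and 8.08 in IgM+SP. The smallest difference was Gimap1, 1.63 ± 0.32. Gimap9 was called at 1.73 ± 0.43, but not without CD4 replicate 1 (1.25, adjusted p = 0.071). Gimap8 was bright in both groups, with 11.86 and 11.98 in CD4, against 10.20 and 10.28 in IgM+SP.

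Genes of survival and quiescence were called in both directions: of 21, 9 rose and 2 fell. For all genes tested, 16.7% were called higher and 9.87% lower. Bcl2, which blocks apoptosis, rose by 1.58 ± 0.28, and Casp8, Fas and Fasl, of the death receptor path, by 2.86 ± 0.35, 1.79 ± 0.21 and 3.41 ± 0.44. Bcl2l11 (BIM), which promotes apoptosis, had 10.01 and 9.18 in CD4, against 11.52 and 11.43 in IgM+SP, and Foxp1, a factor of naive lymphocytes, 8.95 and 9.64 in CD4, against 11.47 and 11.26 in IgM+SP. The Bcl2l11 call was lost without CD4 replicate 2 (-1.47, adjusted p = 0.0595). Mcl1 at -0.47 ± 0.25, Btg1 at -0.94 ± 0.40, Foxo1 at -0.99 ± 0.34 and Klf2 at 1.11 ± 0.97 were bright on all 4 arrays and not called. Under quantile normalization 4 of the list were called lower, with Btg1 at -1.22 and Foxo1 at -1.08.

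**Figure D4:**
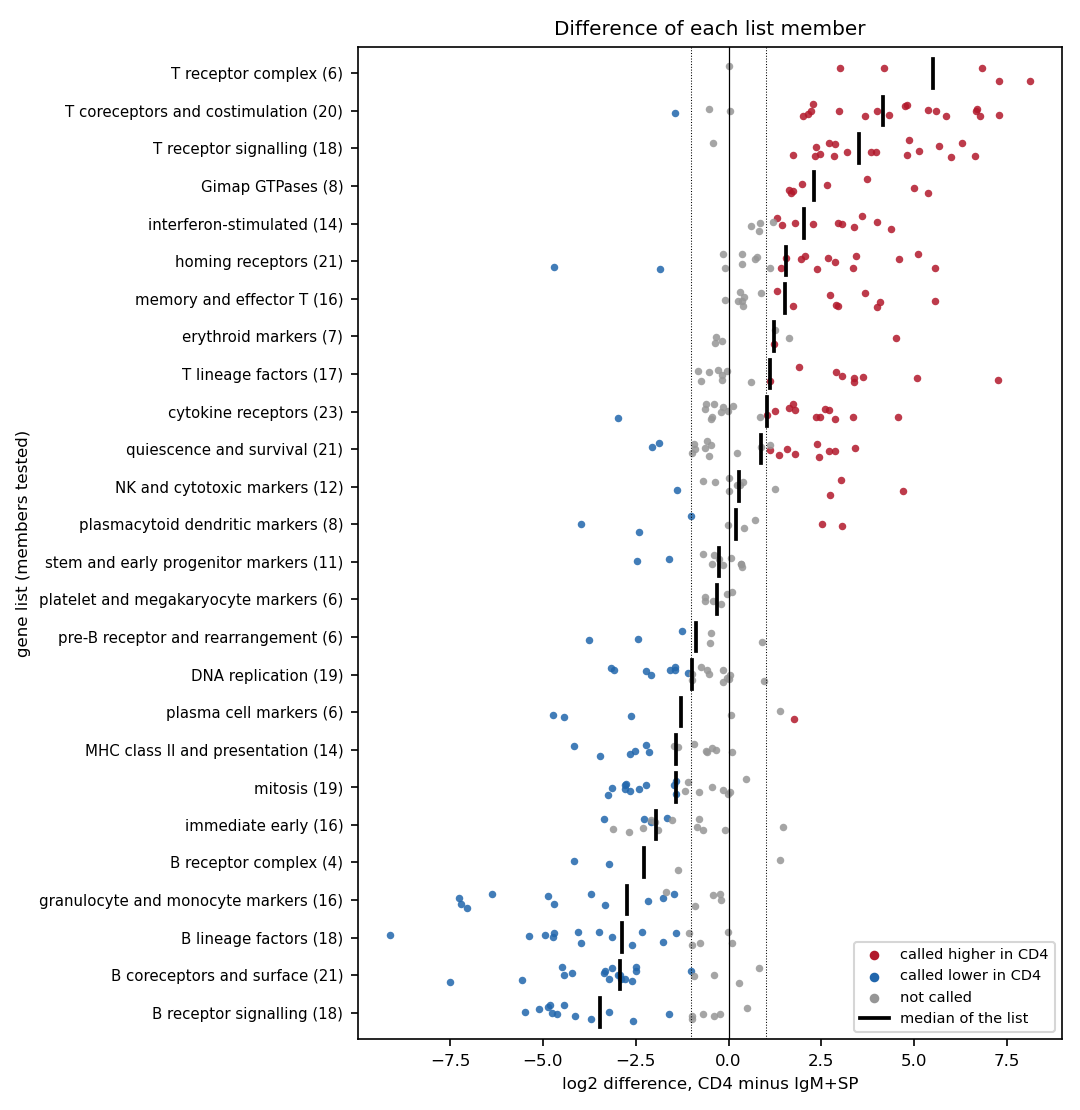
Log2 difference, CD4 minus IgM+SP, of every tested member of the 26 gene lists, ordered by list median (black bar); red points were called higher, blue lower and grey not called, and dotted lines mark a 2-fold difference. The 3 lists of T receptor, coreceptor and T signalling genes have the highest medians (5.50, 4.16 and 3.51), and B receptor signalling the lowest (-3.47).

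Interferon-stimulated genes rose in CD4: 10 of 14 were called higher, none lower, and the median was 2.03. Ifit1, which binds foreign RNA ends, had 8.20 and 8.25 in CD4, against 4.06 and 3.62 in IgM+SP. Ifit2 and Ifit3, of the same family, had 9.15 and 8.96 in CD4, against 5.65 and 5.70 in IgM+SP, and 7.25 and 7.68 in CD4, against 4.47 and 4.59 in IgM+SP. Ifit1bl1, a relative of Ifit1, was among the 12 largest rises with 10.99 and 11.66 in CD4, against 4.18 and 4.81 in IgM+SP. Usp18, which removes the ubiquitin-like interferon protein, differed by 3.98 ± 0.45, Bst2 (tetherin) by 3.05 ± 0.42, Oas1a, an RNA sensor, by 2.27 ± 0.31 and the factor Irf7 by 1.79 ± 0.27. Rsad2 at 1.20 ± 0.60, Mx1 at 0.86 ± 0.35, Stat2 at 0.83 ± 0.39 and Oas2 at 0.61 ± 0.25 were not called, and Rsad2 had 8.51 and 10.34 in CD4, against 8.42 and 8.04 in IgM+SP. Rsad2 was called higher without CD4 replicate 1 (2.12) and with its probe sets averaged (1.39), and Mx1 without IgM+SP replicate 2 (1.29). All 14 members lay above 0 in difference. For the 10 called the arrays of the groups did not overlap, which also held for 3703 of the 3711 genes called in all.

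The core of the interferon-stimulated response element, a pair of GAAA separated by any 2 bases and searched on both strands, stood in the RefSeq promoter window (GRCm38.p6) of 6 of the 10 list members tested that have one. It stood in 3.56% of all genes tested, in 4.76% of those called higher in CD4 and in 3.38% of those called lower. Windows of 60 bases are given for 4 of the genes that rose, with the core in capitals; Ifit1 and Ifit3 hold 2 copies each, and Bst2 and Oas1a 2 copies that overlap.
Ifit1, chr19:34640760-34640819, plus strand: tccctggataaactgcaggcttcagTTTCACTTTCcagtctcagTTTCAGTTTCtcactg
Ifit3, chr19:34583365-34583424, plus strand: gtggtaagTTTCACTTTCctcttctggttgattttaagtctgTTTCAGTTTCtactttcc
Bst2, chr8:71537568-71537627, minus strand: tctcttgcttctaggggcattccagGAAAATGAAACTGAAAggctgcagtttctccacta
Oas1a, chr5:120907526-120907585, minus strand: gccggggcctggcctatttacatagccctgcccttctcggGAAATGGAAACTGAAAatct
A match shows that these letters are in the window and nothing about what bound there.

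Genes of cell division were lower in CD4. IgM+SP also carried the early B cell transcript Cd93, and the part of immature B cells in this difference was not tested. Of 19 mitosis genes, 11 fell and none rose (median -1.42). Mki67, the proliferation marker, had 8.05 and 7.92 in CD4, against 10.81 and 10.75 in IgM+SP. Top2a, which untangles replicated DNA, had 6.91 and 6.87 in CD4, against 9.63 and 9.71 in IgM+SP. Ccna2, an S and G2 phase cyclin, had 5.50 and 4.09 in CD4, against 8.31 and 7.75 in IgM+SP. Nusap1, a spindle protein, differed by -3.15 ± 0.42 and Bub1, a spindle checkpoint kinase, by -2.65 ± 0.38. Plk1 at 0.050 ± 0.63, Cdk1 at -0.15 ± 0.54 and Ube2c at -0.027 ± 0.66 were not called. Of 19 DNA replication genes, 8 fell and none rose (median -0.97). Rrm2, the regulated subunit of ribonucleotide reductase, had 7.34 and 6.88 in CD4, against 10.14 and 10.23 in IgM+SP, Cdc6, which loads the helicase, 3.90 and 3.55 in CD4, against 6.94 and 6.86 in IgM+SP, and Cdt1, its partner, 9.51 and 9.69 in CD4, against 11.78 and 11.87 in IgM+SP. Pcna at 0.95 ± 0.43, Mcm7 at 0.0076 ± 0.23 and Mcm2 at -0.14 ± 0.25 were not called. With all probe sets of a gene averaged, 4 replication genes were called lower in place of 8.

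Immediate early genes, which respond within minutes to stimulation or to handling of cells, had a median of -1.94 over 16, with 4 called lower in CD4 and none higher. Atf3, a stress factor, had 2.98 and 3.31 in CD4, against 6.67 and 6.34 in IgM+SP, a difference of -3.36 ± 0.74. Fos had 9.95 and 8.10 in CD4, against 12.10 and 12.20 in IgM+SP, a difference of -3.12 ± 1.78, and Egr1 9.27 and 9.31 in CD4, against 11.90 and 12.05 in IgM+SP, a difference of -2.68 ± 1.17; neither was called (adjusted p = 0.18 and 0.069). On the 4 arrays alone, without the spread of the other groups, 11 of the 16 were called lower and Ier2 higher. Under quantile normalization 7 were called lower. Leaving out 1 array of the 4 left 1 to 2 called lower: 2 without CD4 replicate 1, 1 without CD4 replicate 2, 1 without IgM+SP replicate 1 and 2 without IgM+SP replicate 2.

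Markers of other cells differed from list to list. None of 6 platelet and megakaryocyte markers was called. Of 11 stem and early progenitor markers, 2 were called lower in CD4 and none higher. With all probe sets of a gene averaged, 1 was called lower. Of 16 granulocyte and monocyte markers, 11 were lower in CD4, and the list's summed intensity was 916 and 945 on the CD4 arrays, against 19843 and 11443 on the IgM+SP arrays. S100a8, a neutrophil calcium-binding protein, had 3.95 and 4.91 in CD4, against 12.14 and 11.15 in IgM+SP, and Ngp, a granule protein, 4.28 and 5.13 in CD4, against 12.18 and 11.72 in IgM+SP. Mpo, the primary granule enzyme, had 3.24 and 3.92 in CD4, against 9.52 and 5.04 in IgM+SP. The neutrophil genes Ngp, Chil3, S100a8, S100a9 and Ltf make up 5 of the 12 largest falls. S100a8 also averaged 12.13 on the NKmature arrays, so it is not particular to the IgM+SP cells. Without IgM+SP replicate 1, 6 of the 16 were called lower, and without CD4 replicate 1, 7; Mpo was then at -1.46 without IgM+SP replicate 1 (adjusted p = 0.26). The part of these markers in the other falls was not tested.

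Erythroid transcripts were uneven in CD4: Alas2, of haem synthesis, had 7.53 and 9.30 in CD4, against 3.95 and 3.89 in IgM+SP, and Slc4a1, the red cell anion exchanger, 5.93 and 8.38 in CD4, against 4.73 and 6.35 in IgM+SP. Of 7 such markers 2 were called higher, and 4 without CD4 replicate 1. Jchain, which joins IgM and IgA, had 7.46 and 7.25 in CD4, against 8.52 and 3.44 in IgM+SP: 1 IgM+SP array was high and the other low, and without IgM+SP replicate 1 it was called higher in CD4 (3.91, adjusted p = 0.0088). Of 6 plasma cell markers, 3 were called lower and 1 higher. Prdm1, which encodes the plasma cell factor BLIMP-1 that effector T cells also use, was the one called higher, at 1.76 ± 0.24. Sdc1, a plasma cell marker that early B cells also carry, had 2.52 and 2.44 in CD4, against 7.26 and 6.59 in IgM+SP. Of 8 plasmacytoid dendritic markers, 2 were called higher and 3 lower, among them Pacsin1 at 2.504 ± 0.24 and Tcf4 at -3.97 ± 0.29. Siglech, of plasmacytoid dendritic cells, had 5.58 and 4.51 in CD4, against 4.67 and 4.62 in IgM+SP, and was not called. The counts of these short lists stand beside 16.7% called higher and 9.87% called lower over all genes tested.

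Genes present in both lymphocytes and absent from progenitors were sought by level and by test. By level, a gene had to exceed 5.97, the 75th percentile of all values, on all 4 lymphocyte arrays and average under 3.89, the median of all values, in each progenitor population. No gene of 18194 met this with all 14 progenitor populations, with ProB left out, with PreB replicates 3 and 4 left out, or with all of these left out. With both ProB and PreB left out, 10 genes did: Ccr6, Cd2, Cd83, Cpm, Cxcr5, Egr2, Fcmr, Grap, Ms4a1 and Rasgrp1. These 10 genes averaged 3.89 or more in ProB or PreB and under it in the other 12 progenitor populations. They were named after their values were seen. Passing the level in both groups did not mean equal levels. Ms4a1, Fcmr and Cd83 were among the B cell surface genes called lower in CD4, and Cd2 and Rasgrp1 were called higher. The part of B cell RNA in the CD4 levels of Ms4a1 and Fcmr was not tested. Cpm, a membrane carboxypeptidase, averaged 10.004 in PreB and 3.51 in ProB.

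By test, 1663 genes were called higher in CD4 than the mean of the progenitor populations (11.9% of genes tested) and 1245 in IgM+SP (8.93%). Without ProB these counts were 1734 and 1266, without PreB replicates 3 and 4 they were 1659 and 1268, and without both 1704 and 1287. Both were called for 457 genes (3.28%); the comparisons share the progenitor arrays, so this count is no measure of likeness. It was 493 without ProB, 471 without PreB replicates 3 and 4, 507 without both and 564 without ProB and PreB. With all arrays, 82 of the 457 were also called higher in CD4 than in IgM+SP and 74 lower. Over all genes tested these shares were 16.7% and 9.87%. In 285 of the 457, CD4 and IgM+SP lay within 2-fold of each other, and that share over all genes was not counted. The progenitor population with the highest mean was PreB for 220 of the 457, ProB for 84 and ETP for 56. A stricter rule, at least 2-fold over each progenitor mean, kept 13 genes (0.0932%). Without ProB, 21 genes met it, all 13 among them. Without PreB replicates 3 and 4 it was again 13 genes, but 9 of the first 13: Tlr1, Btla, Ephx1 and Grap dropped out, and Bcl3, Cd83, Ets1 and Zswim6, named after their values were seen, came in. Without both, 28 genes met it, with the same 4 absent, and without ProB and PreB 100 did.

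Of these 13, 4 were receptors that place lymphocytes in lymphoid organs. Cxcr5 averaged 8.39 in CD4 and 8.49 in IgM+SP, against 5.45 in PreB and 4.46 in ProB, and 2.93 to 5.45 over all progenitors. Gpr183, which follows oxysterols, had 9.76 and 10.80 in CD4, against 7.91 and 8.49 in IgM+SP, and its highest progenitor mean was 5.997. Ccr6 had 6.72 and 7.56 in CD4, against 7.26 and 7.34 in IgM+SP, and its highest progenitor mean was 5.17. Ccr7 stood lowest against its nearest progenitor among the chemokine receptors: it averaged 8.01 in PreB and 4.53 in ProB. Cxcr5, Gpr183, Ccr6 and Ccr7 all averaged under the filter level in NKmature cells, as did 6 of the 13 in all. In 2 of the 13, Egr2 and Grap, NKmature too lay at least 2-fold over each progenitor mean, at 8.07 and 7.82.

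The other 9 were of mixed roles, and 4 of them, Tlr1, Btla, Ephx1 and Grap, did not meet the rule without PreB replicates 3 and 4. Egr2, a factor induced by antigen receptor signals, had 8.78 and 8.63 in CD4, against 10.35 and 10.10 in IgM+SP, and its highest progenitor mean was 6.05. Tlr1, a receptor for bacterial lipopeptides, had 8.20 and 8.62 in CD4, against 6.09 and 7.10 in IgM+SP, and Btla 10.41 and 10.59 in CD4, against 11.84 and 12.06 in IgM+SP. Ephx1, a detoxifying epoxide hydrolase, had 9.82 and 9.92 in CD4, against 7.79 and 7.79 in IgM+SP. Grap, an adaptor of the Grb2 family, had 7.83 and 8.45 in CD4, against 7.19 and 7.58 in IgM+SP, and Zc3h12d, an RNA-degrading protein, 7.47 and 7.05 in CD4, against 7.90 and 7.82 in IgM+SP. Stk17b, an apoptosis-related kinase, was bright everywhere, with 11.77 and 11.43 in CD4, against 11.83 and 11.80 in IgM+SP and progenitor means of 6.91 to 10.02. Dusp10, a phosphatase of stress kinases, and Plcxd2 completed the set at 6.31 and 5.99 and 8.89 and 9.50 in CD4. The highest progenitor mean was in ProB or PreB for 12 of the 13, and in GMP for Plcxd2. Between CD4 and IgM+SP, 5 of the 13 were called: Gpr183, Tlr1, Ccr7 and Ephx1 higher in CD4 and Btla lower. Over all genes tested, 26.6% were called in either direction. Egr2 differed by -1.51 ± 0.62 and was not called (adjusted p = 0.052), but it was called lower in 8 alternatives, among them the one without PreB replicates 3 and 4 (adjusted p = 0.000548). The Tlr1 call was lost without CD4 replicate 2 (1.61, adjusted p = 0.0645) or IgM+SP replicate 1 (1.32, adjusted p = 0.13). The genes just outside the limit were Clec4n, with a margin of 0.99 over its highest progenitor mean, and Rasa3, with 0.98; Dusp10 was just inside, with 1.01.

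**Figure D5:**
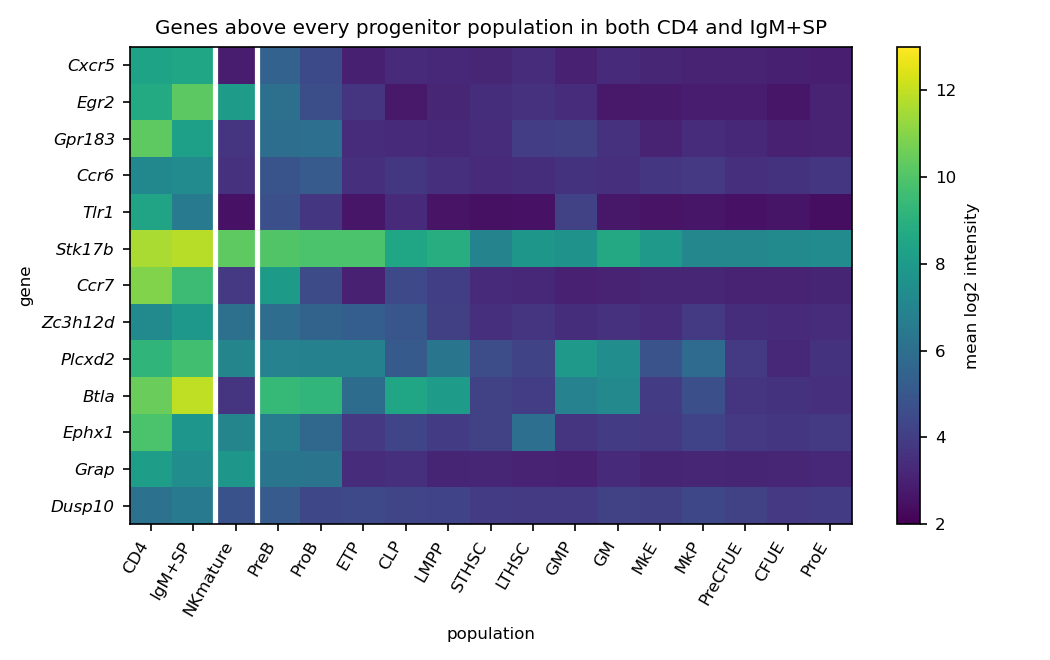
Mean log2 intensity (colour) of the 13 genes that were called higher in both CD4 and IgM+SP than the progenitor mean and lay at least 2-fold above each progenitor population, in all 17 populations, CD4 and IgM+SP first. Intermediate intensities in the PreB and ProB columns are the highest among progenitors for 12 genes, and NKmature falls under 3.89 for 6.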

How the data were processed

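RNA of 4 compared arrays and 43 others was measured on an Affymetrix array of 45101 probe sets. The authors deposited intensities on a linear scale, made with RMA per the design text of the series; these intensities were log2-transformed here without a pseudocount. Probe sets with 1 symbol in the platform annotation (34958) gave 18194 genes, each represented by its brightest probe set. The 13949 genes with at least 1 group mean above the median of all values (3.89) were tested with limma 3.58.1 (R 4.3.3), 17 group means over all 47 arrays, with Benjamini-Hochberg adjustment. Simulated data took each gene's spread from the fit, equal in all populations. In them 79% of changes of 1.5 and 100% of changes of 3 on the log2 scale were recovered, and 6 unchanged genes were called. Calls under unequal spread were not simulated. Named genes were the 12 largest rises and falls, members of 26 lists and 20 pairs, and the 20 largest margins over progenitors. Members and lists were chosen with earlier results of these data known. The number of arrays limits precision. Alternatives varied probe-set choice, filter, scaling, samples and model. Sequences are from RefSeq (GRCm38.p6).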

Additional observations from a re-analysis of the deposited data

How the results depend on the processing

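The counts of genes called higher and lower in CD4 stayed within 1.5 times the reported ones under each alternative run. Leaving out 1 of the 4 arrays gave 2058 to 2253 genes higher and 1138 to 1380 lower, 421 to 469 genes higher in both lymphocytes than in progenitors, and 0 genes by level. Quantile normalization gave 1910 higher and 1632 lower, and centring each array gave 2510 and 1243. Averaging all probe sets of a gene gave 1900 higher, 1001 lower and 322 higher in both lymphocytes than in progenitors. Of the 3711 genes called in the main fit, 2616 were called there too. By level, leaving out ProB and PreB gave 10 genes in place of 0, and asking for 2-fold over each progenitor mean gave 13 genes in place of 457. Replicate numbers did not pair the samples (correlation of deviations -0.067), and the fit with the replicate block gave 2352 higher, 1395 lower, 465 in both and 8 immediate early genes lower, Egr1 (adjusted p = 0.0264) and Egr2 (0.0468) among them. Leaving out ProB alone, or PreB replicates 3 and 4, was chosen after seeing the data. With all probe sets of a gene averaged, Zap70 turned to 2.35. Differences under 2-fold could not be called by the rule itself.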
